A study of Monodelphis domestica with 2 samples.

Results

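The 8 genes ADGB, GRAMD2A, ADGRG2, SGK3, GLIS3, PDGFD, LMCD1 and UTRN were described across the cells of opossum primary visual cortex (V1). They were chosen by symbol, as genes whose level differs between 2 groups of excitatory neurons, IT_A and IT_C, and they are 8 of the 30800 genes counted and of the 11590 that carry a symbol. Single nuclei were taken from V1 of 2 adult male gray short-tailed opossums (Monodelphis domestica), aged 1.5 and 2 years. Tissue of both hemispheres was pooled within an animal, and 2 libraries were made from each. No treatment was given, so each animal is 1 replicate of 1 untreated group, and a different experimenter processed each animal, so that animal, age and handling cannot be told apart. The question addressed here was where else in the cortex each of the 8 genes is on.

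Intratelencephalic (IT) neurons are glutamatergic cells whose axons stay within the cortex and other parts of the telencephalon, and the study divided those of the opossum into 4 subclasses, IT_A to IT_D, by unsupervised clustering. The other glutamatergic subclasses were the pyramidal tract (L5PT), near-projecting (L5NP), corticothalamic (L6CT) and deepest-layer (L6b) neurons. GABAergic interneurons were labelled Pvalb, Sst, Vip, Lamp5 and Frem1, and non-neuronal nuclei as oligodendrocytes (OD), their precursors (OPC), astrocytes, microglia and endothelial cells. A gene that sets 2 neuron groups apart may also be in use in cells unrelated to them, since adhesion receptors, kinases and cytoskeletal linkers serve many cell types.

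The 8 genes have unlike roles. ADGB encodes androglobin, a large globin best known from testis and ciliated cells. GRAMD2A is a membrane protein of contact sites between the endoplasmic reticulum and the plasma membrane. ADGRG2 is an adhesion G protein-coupled receptor, best known from the male reproductive ducts. SGK3 is a kinase related to AKT that sits on endosomes. GLIS3 is a zinc finger transcription factor. PDGFD is a ligand of the platelet-derived growth factor (PDGF) family. LMCD1 is a LIM domain protein that acts as a transcriptional co-regulator, and UTRN is utrophin, the close relative of dystrophin that links the actin cytoskeleton to the membrane complex around dystroglycan.

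Of 36558 barcodes, 32764 nuclei in 18 subclasses entered the comparisons. The 4 libraries held between 55625042 and 69706055 unique molecular identifiers (UMIs, counts of single RNA molecules), with a median of 5834 to 7040 UMIs per labelled nucleus, and 16 to 30 barcodes were shared by any 2 libraries. The median depth per subclass ran from 1402.5 UMIs in endothelial nuclei to 10712.5 in L5PT. Endothelial nuclei were few, 29 in animal 1 and 36 in animal 2, as were L6b nuclei (56 and 53) and the IT_D nuclei of animal 1 (58). The subclass labels were checked against markers. MBP, PDGFRA, GFAP, CSF1R, FLT1, SST, VIP and LAMP5 were each highest in the subclass they mark in both animals, as were the IT_B marker RORB, POU3F1 in L5PT, and FOXP2 and SYT6 in L6CT. Other markers were not. FREM1 was highest in Lamp5, the L5PT marker FEZF2 in L5NP, the L5NP markers TSHZ2 and HTR2C in endothelial nuclei and IT_C, and the L6b markers CCN2 and CPLX3 in microglia and L5NP, so that no L5NP or L6b marker was highest in its own subclass. TLE4 (L6CT) was highest in L5NP and L6b, and BCL11B (L5PT) and CUX2 (IT_D) were highest in another subclass in animal 1. PVALB has no symbol in the files. Levels are given as counts per 1000000 UMIs (CPM) of all nuclei of a subclass in 1 animal, animal 1 first. A gene is called on in a subclass at 20 CPM or more in both animals. For the 8 genes these were 51 calls, of which 8 had a library under 20 CPM, namely ADGB in IT_D, L6b and endothelial nuclei, GRAMD2A in L5NP and L6CT, ADGRG2 in L6b, GLIS3 in microglia and LMCD1 in endothelial nuclei.

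In the contrast that chose them, 6 of the genes were higher in IT_A and 2, LMCD1 and UTRN, in IT_C. ADGB stood at 175 and 167 CPM in IT_A and at 13.5 and 15.1 CPM in IT_C. The same pair of subclasses held GRAMD2A at 121 and 131 against 15.0 and 15.1 CPM, ADGRG2 at 119 and 129 against 12.5 and 12.9 CPM, and SGK3 at 132 and 104 against 11 and 12.0 CPM. GLIS3 stood at 62.1 and 106 CPM in IT_A and 3.55 and 6.31 CPM in IT_C, and PDGFD at 23.7 and 57.6 against 1.18 and 2.27 CPM. LMCD1 stood at 0.69 and 1.78 CPM in IT_A and at 29.1 and 23.8 CPM in IT_C, and UTRN at 11.4 and 10.1 against 152 and 174 CPM. These values chose the genes and are a description only. Among all 17227 genes tested, 13.4% differed between IT_A and IT_C at an adjusted p under 0.05 in edgeR's quasi-likelihood test, 7.42% higher in IT_A and 5.98% higher in IT_C. These were 2309 genes, and 4134 were called with the animal as a block.

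Outside this contrast the genes had different maps. The highest of the 18 subclasses was Sst interneurons for ADGB, astrocytes for GRAMD2A and GLIS3, oligodendrocytes for SGK3, endothelial nuclei for PDGFD, LMCD1 and UTRN, and IT_A itself for ADGRG2, and for all 8 genes it was the same subclass in both animals. It was also the same in each of the 4 libraries but for LMCD1 in 1 library of animal 1. So 7 of the 8 (87.5%) peaked outside IT neurons. That share is near the background: among genes on in at least 1 subclass, 91.0% of 10173 peaked outside IT, as did 82.0% of the 1014 that were higher in IT_A and 85.2% of the 846 that were higher in IT_C. The number of subclasses where a gene was on ran from 2 for LMCD1 to 15 for UTRN, with a median of 6 over the 8 genes against 11 over all genes on somewhere. All 8 differ by more than 3 on the log2 scale in the contrast that chose them, and among genes called with a difference of 3 or more the median was 4 for the 55 higher in IT_A and 1.5 for the 44 higher in IT_C. By molecules rather than by level, IT_A held the most UMIs of ADGB, GRAMD2A, ADGRG2, SGK3 and PDGFD in both animals, and it is the largest subclass. IT_A held 58.7 and 65.8% of all ADGB UMIs, for example, and 85.2 and 89.6% of those of ADGRG2.

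**Figure D1:**
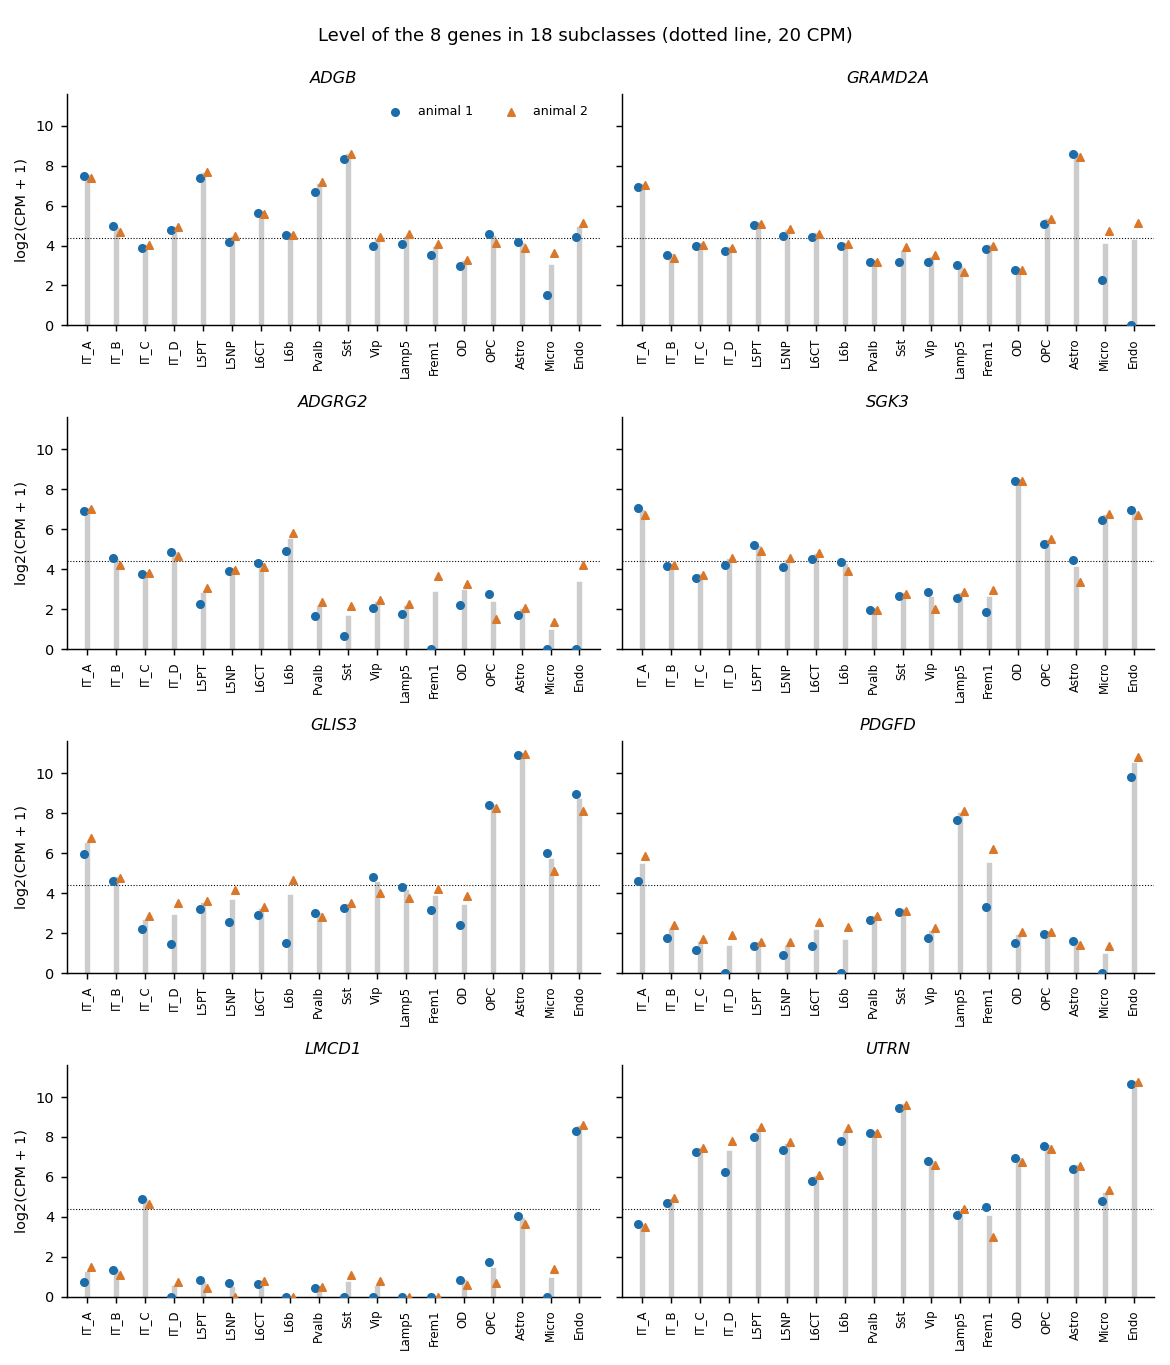
Level of each gene, as log2(CPM + 1), in the 18 subclasses. Circles are animal 1, triangles animal 2, grey bars the value of their mean CPM, and the dotted line marks 20 CPM. ADGB stood highest in Sst, SGK3 in OD, GRAMD2A and GLIS3 in astrocytes, and PDGFD, LMCD1 and UTRN in endothelial nuclei, in both animals.

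ADGB was a gene of Sst interneurons as much as of IT_A. It stood at 320 and 382 CPM in Sst (351 ± 43.8, mean ± SD, n = 2 animals), at 168 and 202 CPM in L5PT, and at 102 and 146 CPM in Pvalb. L6CT followed at 48.0 and 46.0 CPM. Sst was above every other subclass in both animals, L5PT and IT_A changed places between the animals and so could not be ordered, and both were above Pvalb, which was above L6CT. ADGB was also over 20 CPM in IT_B, IT_D, L6b and endothelial nuclei, the last on 1 and 2 UMIs, at no more than 34.6 CPM in each. From L6b down to Frem1 (10.7 and 16.1 CPM) neighbours in the order overlapped. Oligodendrocytes (6.75 and 8.64 CPM) were below Frem1 in both animals and overlapped with microglia (1.89 and 11.2 CPM).

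At the level of nuclei, 72.2 and 73.4% of Sst nuclei had an ADGB UMI (median depth 6269 and 4713 UMIs) against 1.4 and 1.87% of oligodendrocytes (1924 and 1909 UMIs). With every nucleus thinned to 1000 UMIs the shares were 27.1 and 33.5% in Sst against 0.746 and 0.905% in oligodendrocytes, so the shares differed at equal depth too. All 4 Sst types held the gene, from 314 CPM in Sst_1 of animal 1 to 465 CPM in Sst_4 of animal 2. Among the 6 Pvalb types, Pvalb_4 stood at 256 and 242 CPM and the other 5 at 67.4 to 155 CPM. CDH7, PPP4R4 and CALB1 were the 3 genes whose levels over the 36 sums of subclass and animal were most like those of ADGB (Pearson r = 0.75, 0.70 and 0.69), but CALB1 came 197th by Spearman correlation (0.52). These and the other likenesses are across subclasses that share 4 libraries, over 7182 genes compared.

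UTRN was the most widely used of the 8 genes, and its mean level was lowest in IT_A. Endothelial nuclei held 1608 and 1694 CPM, on 78 and 98 UMIs, and 89.7 and 77.8% of them had a UMI. Sst followed at 708 and 767 CPM (738 ± 41.5), with 82.2 and 78.8% of nuclei positive. L5PT at 254 and 366 CPM, Pvalb at 291 and 292 CPM and L6b at 223 and 351 CPM overlapped. L5NP, OPC, IT_C and IT_D overlapped too, the widest being IT_D at 73.9 and 220 CPM on 42 and 650 UMIs. Oligodendrocytes (121 and 106 CPM), Vip (111 and 94.3 CPM) and astrocytes (83.3 and 92.3 CPM) came next. The gene was low in IT_B (24.7 and 29.5 CPM), Lamp5 (16.2 and 20.2 CPM) and Frem1 (21.4 and 6.92 CPM). UTRN thus spanned neurons of both classes and glia, while within IT it was lowest in IT_A and highest in IT_C and IT_D.

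The types within a subclass differed in UTRN as well. Pvalb_3 stood at 581 and 585 CPM and Pvalb_6 at 475 and 696 CPM, whereas Pvalb_5 stood at 78.9 and 18 CPM. Vip_2 (210 and 148 CPM) was above Vip_1 (67.7 and 61.9 CPM) in both animals. The smallest oligodendrocyte type, OD_5 with 34 and 28 nuclei, held 717 and 522 CPM, against 61.3 to 134 CPM in the other 4. In OD_5 the summed endothelial markers stood at 7.63 and 8.85 CPM, against 3277 and 3042 CPM in endothelial nuclei, and 11.8 and 10.7% of its nuclei were called doublets by Scrublet, against at most 0.847% in the other 4 types. The part of these doublet calls in the value was not tested. WNK4, THSD1 and FAM193A were the genes most like UTRN (r = 0.76, 0.66 and 0.64).

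**Figure D2:**
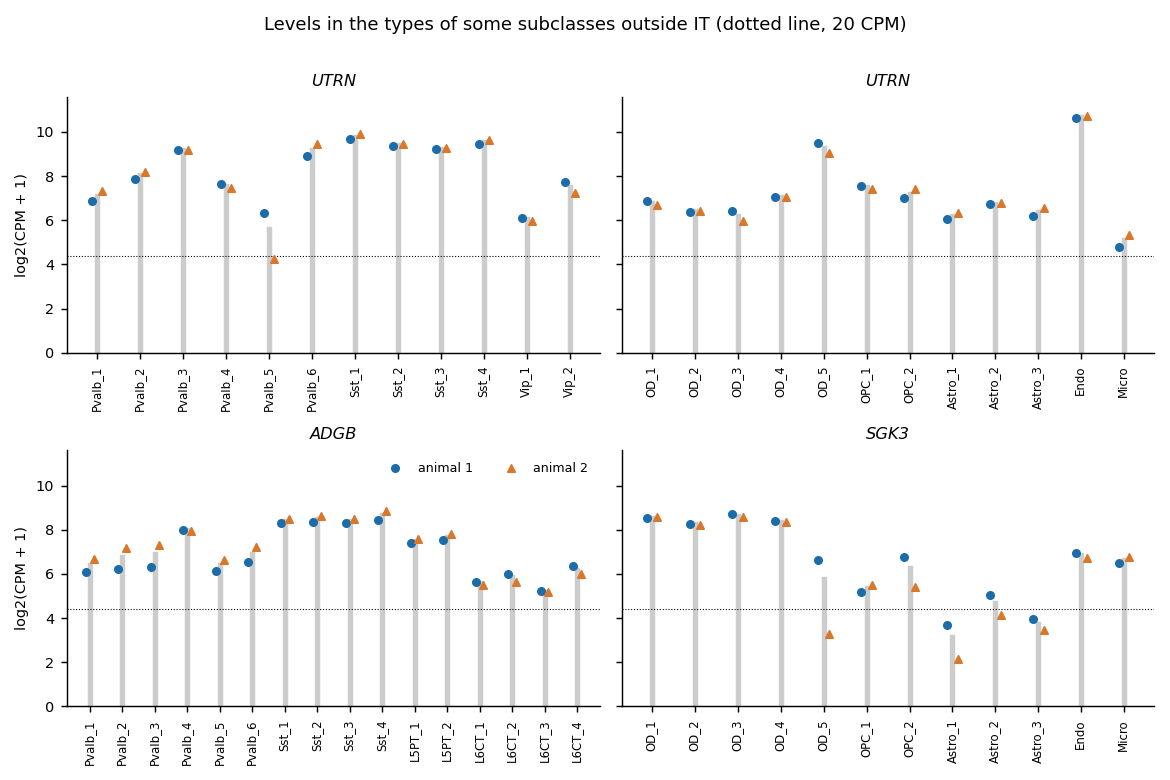
Levels, as log2(CPM + 1), of UTRN, ADGB and SGK3 in the types of subclasses outside IT. Circles are animal 1, triangles animal 2, grey bars the value of their mean CPM, and the dotted line marks 20 CPM. UTRN in OD_5 (717 and 522 CPM) stands above the other OD types, where SGK3 is lower (99.2 and 8.85 CPM against 296 to 416 CPM), and ADGB is high in all 4 Sst types.

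SGK3 was an oligodendrocyte gene beside its place in IT_A. Oligodendrocytes held 347 and 346 CPM (346 ± 0.864), and 45.6 and 44.7% of them had a UMI at a median depth of 1924 and 1909 UMIs. IT_A, endothelial nuclei (124 and 104 CPM, on 6 UMIs in each animal) and microglia (88.6 and 108 CPM) overlapped. OPC stood at 37.0 and 44.8 CPM, L5PT at 36.1 and 28.7 CPM, and L6CT at 22.0 and 26.9 CPM, the last at 19.7 and 23.7 CPM without doublet calls. The 5 interneuron subclasses held 2.68 to 6.92 CPM. The summed oligodendrocyte markers stood at 62.2 to 222 CPM in interneurons, against 13245 and 13358 CPM in oligodendrocytes, and their part in these low values was not tested. Pvalb had 2.84 and 2.86 CPM of SGK3, and 1.9 and 1.52% of its nuclei had a UMI. IT_A stood at 90.6 and 93.8 CPM of the same markers and at 132 and 104 CPM of SGK3. OD_1 to OD_4 ranged from 296 to 416 CPM, and OD_5 stood at 99.2 and 8.85 CPM on 13 UMIs and 1 UMI. Thinned to 1000 UMIs, 27.8 and 26.9% of oligodendrocytes and 11.8 and 9.89% of IT_A nuclei were positive. NR3C1, the glucocorticoid receptor gene, and PELI2 were most like SGK3 (r = 0.79 each), with KCNJ2 at 0.77.

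GRAMD2A and GLIS3 were both astrocyte genes. Astrocytes held GRAMD2A at 385 and 345 CPM (365 ± 28.2), with 57.3 and 55.6% of nuclei positive, and IT_A followed. OPC (32.7 and 39.8 CPM) and L5PT (31.7 and 33.0 CPM) overlapped, and L5NP (21.2 and 27.8 CPM) and L6CT (20.6 and 22.8 CPM) were just over the threshold. Without the nuclei Scrublet called doublets both fell under it in at least 1 animal, L5NP at 19.8 and 24.3 CPM and L6CT at 17.8 and 18.6 CPM. Oligodendrocytes stood at 5.73 and 5.76 CPM, with 1.23 and 1.25% of nuclei positive, and endothelial nuclei had 0 and 2 UMIs. The 3 astrocyte types overlapped, at 339 to 420 CPM. MSI1, a marker of neural progenitors and astrocytes, CRYM and C3orf70 were most like GRAMD2A (r = 0.76, 0.75 and 0.72).

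GLIS3 was far higher in astrocytes than anywhere else, at 1942 and 1965 CPM (1954 ± 16.5), and 95.3 and 96.7% of astrocytes had a UMI. It kept 81.3 and 83.3% at 1000 UMIs a nucleus. Endothelial nuclei (495 and 277 CPM, on 24 and 16 UMIs) and OPC (341 and 302 CPM) overlapped. The endothelial value rested on few nuclei, with 71.0 and 668 CPM in the libraries of animal 1 and 361 and 183 CPM in those of animal 2. IT_A followed at 62.1 and 106 CPM, with microglia at 62.2 and 33.5 CPM, and IT_B stood at 23.6 and 26.2 CPM. Without the nuclei Scrublet called doublets, microglia stood at 32.1 and 31.4 CPM and endothelial nuclei at 548 and 174 CPM. In microglia the summed astrocyte markers stood at 1584 and 1014 CPM, against 4237 and 3957 CPM in astrocytes, and in OPC at 435 and 368 CPM. In IT_A they stood at 12.6 and 12.8 CPM, and in IT_C at 12.2 and 19.2 CPM. The part of astrocyte RNA in the microglial value was not tested. The endothelin receptor gene EDNRB, RGCC and NOTCH1 were most like GLIS3 (r = 0.87, 0.84 and 0.83).

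PDGFD and LMCD1 were both highest in endothelial nuclei. PDGFD stood at 907 and 1780 CPM in endothelial nuclei, on 44 and 103 UMIs. Lamp5 interneurons held 204 and 271 CPM (238 ± 47.4), with 38.7 and 38.6% of nuclei positive. IT_A stood at 23.7 and 57.6 CPM. All other subclasses but Frem1 were at or under 7.61 CPM. Both Lamp5 types held the gene alike, at 205 and 272 CPM in Lamp5_1 and 204 and 271 CPM in Lamp5_2. In Frem1 the level was 8.92 and 73.8 CPM, but 49 of the 64 UMIs of animal 2 lay in 1 nucleus, and without the highest nucleus of each animal it was 5.38 and 17.9 CPM, an alternative chosen after seeing the data. Scrublet had called that nucleus of each animal a doublet, and without all doublet calls Frem1 stood at 3.67 and 13.9 CPM. Endothelial nuclei had no UMI of the mural marker RGS5, PDGFRB or NOTCH3 in animal 1 and 34.6 CPM of them in animal 2. CGNL1, CD93 and FN1, which are known endothelial or matrix genes, were most like PDGFD (r = 0.85, 0.81 and 0.79).

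LMCD1 was nearly absent outside 3 subclasses. Endothelial nuclei held 309 and 380 CPM, on 15 and 22 UMIs, and 17.2 and 22.2% of them had a UMI. All 15 UMIs of animal 1 came from 1 of its 2 libraries (0 and 436 CPM), and in the library without them IT_C was highest, at 28.3 CPM. IT_C followed on 270 and 241 UMIs, with 16.2 and 11.7% of nuclei positive, and astrocytes stood at 15.4 and 11.3 CPM. These 3 did not overlap with one another or with the rest, where the highest value was 2.37 CPM in OPC. No UMI was found in L6b, Lamp5 or Frem1. A count of 3 UMIs, the limit that a count of 0 allows, would be 2.42 and 2.33 CPM in Lamp5. IT_C_2 (31.1 and 33.6 CPM) was above IT_C_1 (12.6 and 17.3 CPM) in both animals. OCLN, which encodes the tight junction protein occludin, and ID1 and ID3 were most like LMCD1 (r = 0.86, 0.85 and 0.84).

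ADGRG2 was the single gene of the 8 that peaked in IT_A and was on in few other places. L6b stood at 29.1 and 55.5 CPM, on 16 and 28 UMIs, and IT_D at 28.2 and 24.4 CPM. In L6b the libraries of animal 1 held 10.2 and 50.9 CPM, so the gene was under the threshold there without the second of them. IT_B (22.7 and 17.6 CPM) and L6CT (18.8 and 16.6 CPM) were near the threshold. Interneurons held 0 to 11.5 CPM and non-neuronal subclasses 0 to 17.3 CPM. The highest of these, 17.3 CPM in endothelial nuclei of animal 2, was 1 UMI. In IT_A 41.4 and 43.4% of nuclei had a UMI, against 0.746 and 1.81% of oligodendrocytes. At 1000 UMIs a nucleus the shares were 11.4 and 11.8% against 0.439 and 0.905%. The L6CT types differed, with L6CT_1 at 6.0 and 5.64 CPM and the other 3 at 20.4 to 37.7 CPM. Scrublet had called 1.95 and 0.899% of L6CT_1 nuclei doublets, 6.74% of L6CT_2 in each animal and 27.6 and 14.6% of L6CT_4, and without doublet calls L6CT as a whole stood at 16.8 and 12.5 CPM. L6CT_3, with 1.90 and 0.978% doublet calls, stood at 32.9 and 21.9 CPM. STX1A, PHYHIP and MAL2 were most like ADGRG2 (r = 0.77, 0.77 and 0.76).

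**Figure D3:**
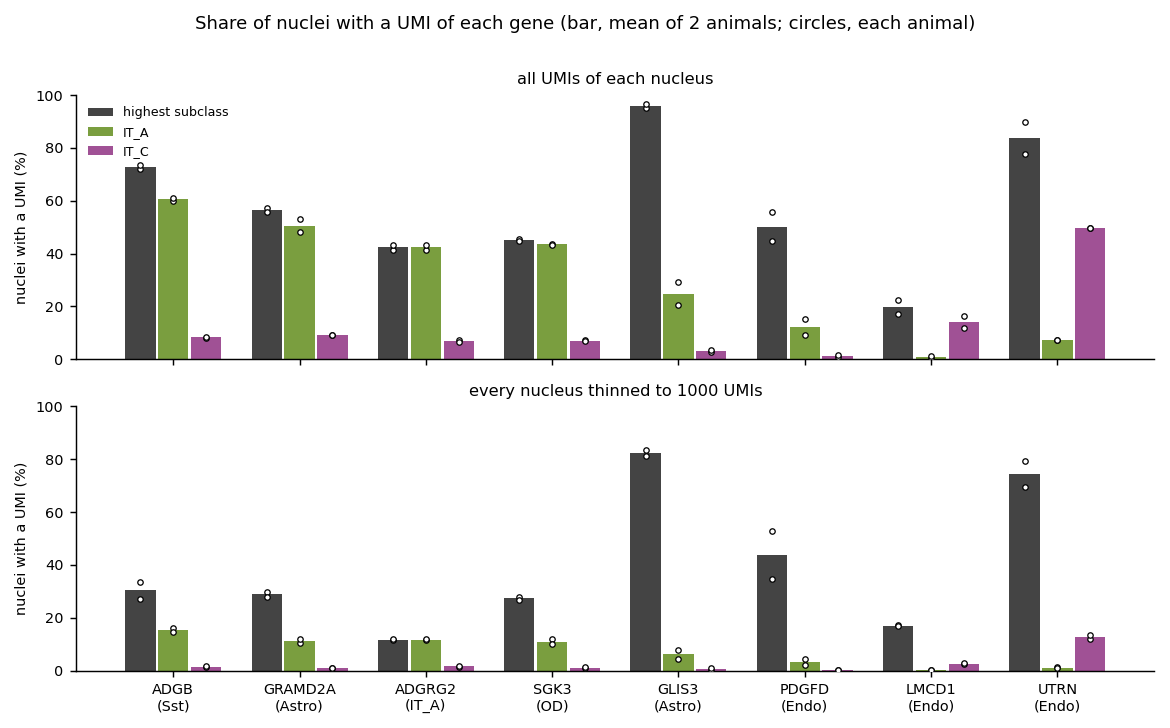
Share of nuclei with at least 1 UMI of each gene in its highest subclass (named under the gene), IT_A and IT_C. Bars are the mean of 2 animals and circles the animals, with all UMIs above and with every nucleus thinned to 1000 UMIs below. GLIS3 in astrocytes goes from 95.3 and 96.7% to 81.3 and 83.3% on thinning, and ADGB in Sst from 72.2 and 73.4% to 27.1 and 33.5%.

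The IT_A types did not share the genes evenly. The summed IT_A level hid ratios of highest to lowest type of 2.48 for ADGB up to 44.1 for ADGRG2 among the 6 genes chosen as higher in IT_A. IT_A_5 led for ADGRG2 (332 and 381 CPM), SGK3 (400 and 425 CPM) and GRAMD2A (216 and 263 CPM). IT_A_4 led for GLIS3 (150 and 257 CPM) yet was lowest for ADGRG2 (7.93 and 8.25 CPM), below IT_B, IT_D and also IT_C (12.5 and 12.9 CPM). IT_A_1 led for PDGFD (49.7 and 87.5 CPM). IT_A_2 was lowest for ADGB (92.6 and 74.3 CPM), GRAMD2A (55.1 and 67.4 CPM), SGK3 (29.2 and 33.9 CPM), GLIS3 (8.63 and 11.7 CPM) and PDGFD (5.09 and 6.63 CPM). UTRN stayed between 5.59 and 16 CPM in all 5 IT_A types, under its level in IT_B, IT_C and IT_D. The types were clustered on these same nuclei, so their differences are a description.

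**Figure D4:**
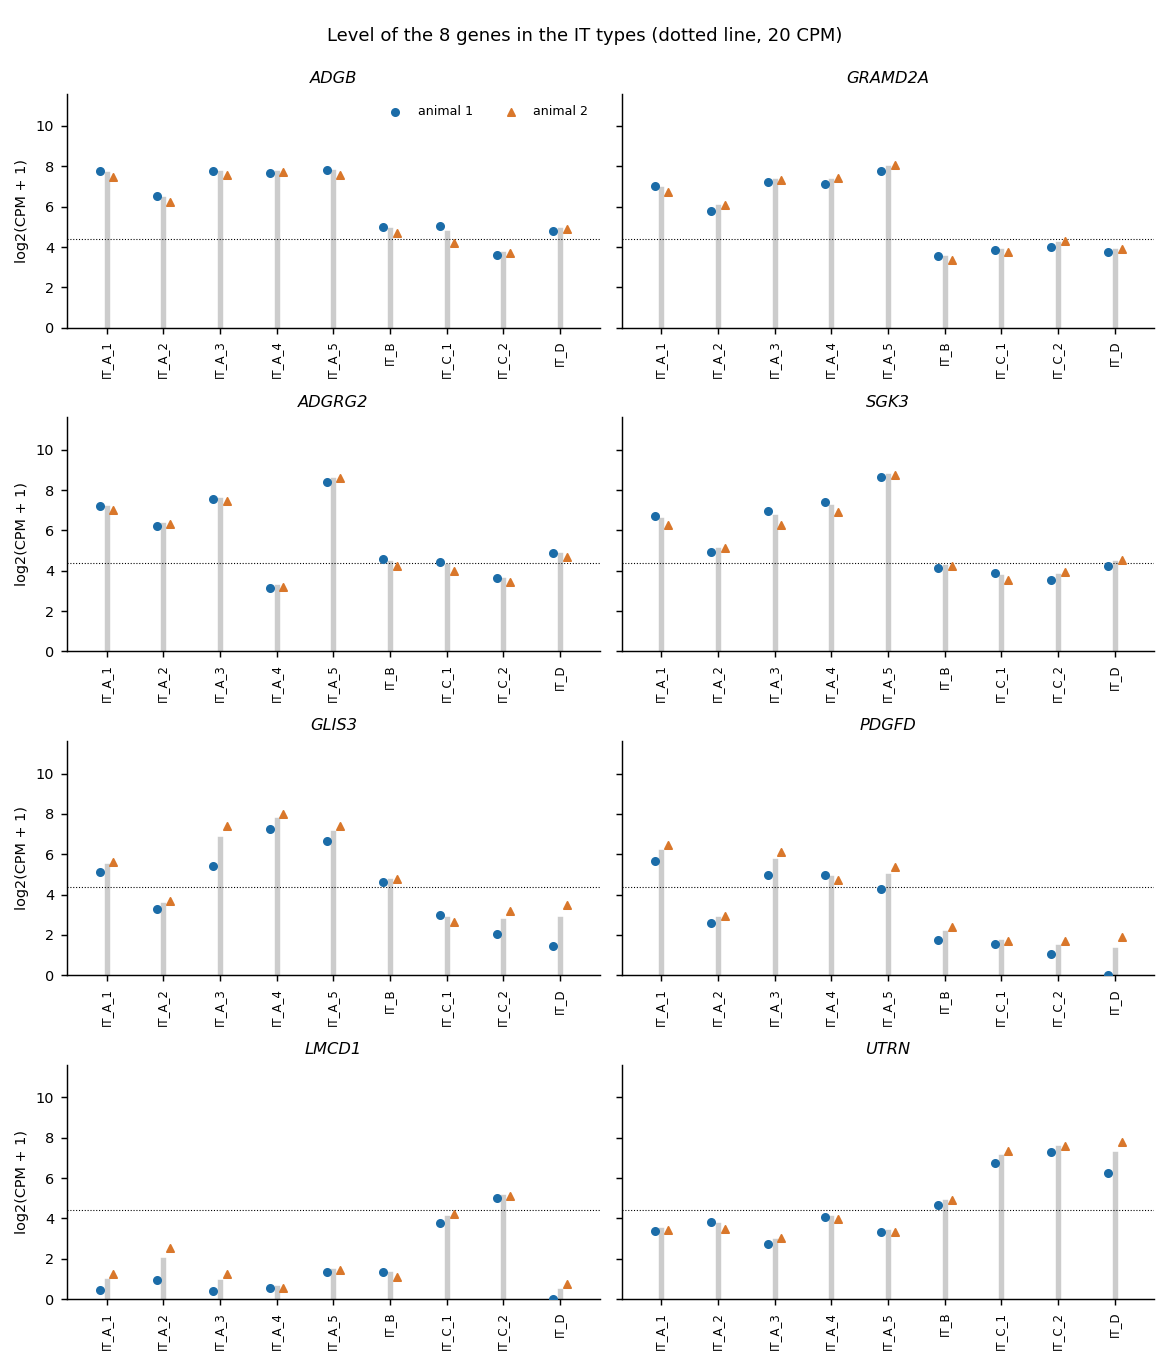
Level of each gene, as log2(CPM + 1), in the 5 IT_A types, IT_B, the 2 IT_C types and IT_D. Circles are animal 1, triangles animal 2, grey bars the value of their mean CPM, and the dotted line marks 20 CPM. ADGRG2 is at 332 and 381 CPM in IT_A_5 and at 7.93 and 8.25 CPM in IT_A_4.

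Differences that the choice of genes did not use were tested with edgeR on the 36 sums, adjusted over all 17227 genes, of which all 8 passed the filter on low counts. The labels compared came from clustering of the same nuclei, and p-values measure the spread between 2 animals. In GABAergic against non-IT glutamatergic subclasses, 33.1% of all genes differed, 15.6% higher and 17.5% lower in GABAergic subclasses, and of the 8 genes 1 was higher and 4 lower. PDGFD was higher, with a log2 fold change of 3.04 ± 0.58 (SE) and an edgeR adjusted p of 1.0e-04. That mean joined Lamp5 (204 and 271 CPM) and Frem1 (8.92 and 73.8 CPM) with Pvalb, Sst and Vip, which stood at 2.37 to 7.61 CPM. The non-IT glutamatergic subclasses stood at 0 to 4.86 CPM of PDGFD. SGK3 and ADGRG2 were lower by similar amounts, at -2.37 ± 0.20 and -2.32 ± 0.29 (edgeR adjusted p = 6.9e-11 and 1.4e-07). GRAMD2A followed at -1.31 ± 0.18 (9.2e-07) and UTRN at -1.04 ± 0.16 (4.7e-06). ADGB, at 0.02 ± 0.15, and GLIS3, at 0.24 ± 0.31, did not pass. LMCD1 did not pass either, and its fold change had no usable SE, since L6b, Lamp5 and Frem1 had no UMI of it. ADGB was called lower in GABAergic subclasses, at -0.36, when sums of fewer than 100 nuclei (endothelial, L6b and IT_D of animal 1) were left out. The mean over subclasses hid the Sst level of UTRN, which was above every non-IT glutamatergic subclass.

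In non-neuronal against non-IT neuronal subclasses, 42.9% of all genes differed, 13.9% higher and 29.0% lower in non-neuronal subclasses. Of the 8 genes 4 were higher and 1 lower. GLIS3 was higher by 3.66 ± 0.25 on the log2 scale and SGK3 by 2.84 ± 0.21 (edgeR adjusted p = 3.6e-13 and 9.5e-13). GRAMD2A was higher by 0.89 ± 0.32 (edgeR adjusted p = 0.0251), a call lost without the nuclei Scrublet called doublets (adjusted p = 0.184), and in animal 1 alone the fold change was -1.21. Its mean joined astrocytes at 385 and 345 CPM with oligodendrocytes at 5.73 and 5.76 CPM, and with endothelial nuclei that had 0 and 2 UMIs. LMCD1 was called higher too, at 4.81 ± 1.08 (edgeR adjusted p = 6.0e-04, and at most 0.0155 in the 6 alternatives). The size of that fold change is uncertain, since L6b, Lamp5 and Frem1 had no UMI of the gene. ADGB was lower, at -1.91 ± 0.17 (1.2e-10). ADGRG2 at -1.08 ± 0.51 (edgeR adjusted p = 0.0943), UTRN at 0.18 ± 0.15 and PDGFD at -0.07 ± 0.64 did not pass. Without sums of fewer than 100 nuclei, and so without the endothelial nuclei in which both genes peaked, UTRN was called lower at -0.40 and PDGFD at -2.07 (edgeR adjusted p = 0.0052 and 0.00448). The median over all genes tested was -0.41 in this contrast, and the split of calls was 2403 higher and 4989 lower by TMM, 2806 and 4381 with median-of-ratios scaling in the same test, and 4405 and 4377 by DESeq2, which changes scaling and test together.

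Between the other pair of IT subclasses, 13.6% of genes differed, 7.64% higher in IT_B and 5.94% higher in IT_D, and of the 8 genes UTRN alone passed. It was lower in IT_B, at -2.53 ± 0.30 (edgeR adjusted p = 2.3e-07), with 24.7 and 29.5 CPM against 73.9 and 220 CPM. GLIS3 was just outside the threshold at 1.59 ± 0.55 (edgeR adjusted p = 0.0536), and it passed in 5 of the 6 alternatives, among them the fit with the animal as a block (1.67, adjusted p = 0.0101). The other 6 did not pass, and the 2 subclasses held similar levels of ADGB, at 31.0 and 24.6 against 26.4 and 29.2 CPM.

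**Figure D5:**
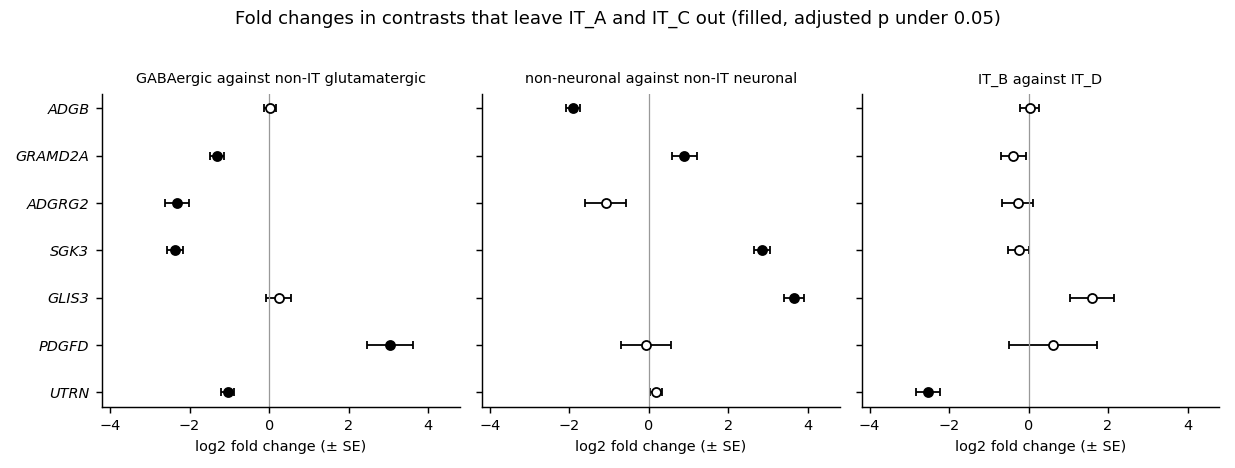
Log2 fold change with its standard error of 7 of the 8 genes in the 3 contrasts that leave IT_A and IT_C out. Filled points passed an edgeR adjusted p of 0.05. LMCD1 is left out. It had no UMI in L6b, Lamp5 and Frem1, which enter the GABAergic and non-neuronal contrasts, and in IT_B against IT_D it was at 1.26 ± 1.11 and did not pass. PDGFD is the gene that was higher in the mean of the GABAergic subclasses, where its level was high in Lamp5. UTRN is the gene that differed between IT_B and IT_D.

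Joint tests asked whether a gene differed among the subclasses of a class. Among L5PT, L5NP, L6CT and L6b, 23.8% of all genes differed and 5 of the 8 did, namely ADGB, UTRN, ADGRG2, SGK3 and GRAMD2A (edgeR adjusted p from 1.8e-13 to 0.0148). Among the 5 GABAergic subclasses, 32.1% of all genes differed and 3 of the 8 did, namely ADGB, UTRN and PDGFD (edgeR adjusted p from 9.9e-17 to 1.2e-10). Among the 5 non-neuronal subclasses, 61.4% of all genes differed and 7 of the 8 did, all but ADGRG2 (edgeR adjusted p = 0.18). These shares are for genes that had been chosen with earlier results of the data known.

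Relatives of the genes, taken from lists by family, gave other maps. Among 7 PDGF ligands and receptors, all tested, PDGFD alone was higher in the mean of the GABAergic subclasses, and PDGFA, PDGFB and PDGFC were lower. PDGFB was on in endothelial nuclei alone (61.8 and 86.4 CPM), and PDGFRB, the receptor through which PDGFD signals, was highest in astrocytes (112 and 102 CPM). PDGFRA, the OPC receptor, stood at 984 and 985 CPM in OPC and was on nowhere else. In the dystrophin family and complex, 14 of 18 genes had a symbol, and 6 were higher and 4 lower in GABAergic subclasses, where 15.6% of all genes were higher and 17.5% lower. UTRN was among the 4 lower ones, and the syntrophin genes SNTG1 and SNTG2 were among the higher ones, at 2.21 and 2.13 on the log2 scale. SGCD, a sarcoglycan gene, was higher in IT_B than in IT_D by 5.36 (edgeR adjusted p = 9.8e-16), the opposite direction to UTRN. DMD itself had no symbol in the files.

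Among adhesion G protein-coupled receptors, 15 of 28 were tested, and 3 were higher and 7 lower in GABAergic subclasses, against the same 15.6 and 17.5% of all genes. ADGRG6 shared the direction of ADGRG2 there, at -4.46, and was highest in endothelial nuclei (1092 and 968 CPM), while ADGRG1 was highest in microglia (639 and 692 CPM). Of the GLIS, GLI and ZIC zinc finger factors, 5 of 11 were tested, and GLIS3, GLI2 and ZIC5 were higher and GLIS2 lower in non-neuronal subclasses, where 13.9% of all genes were higher and 29.0% lower. GLI2, a factor of Sonic hedgehog signalling, stood at 616 and 582 CPM in astrocytes and was on in no other subclass. Of the SGK and AKT kinases, 6 of 7 were tested. SGK1 moved the other way from SGK3 in both class contrasts, at 0.36 and -2.09. The GRAM domain gene GRAMD1B likewise stood at 0.22 and -2.33, with 5 of 6 in that list tested. The globins NGB and CYGB were on in no subclass, and the LIM and PET domain gene PRICKLE1, 1 of 4 tested of 6, was highest in oligodendrocytes (525 and 570 CPM).

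Between the animals, PDGFD was higher in animal 2 in 17 of 18 subclasses. Its ratio between animals was 1.33 to 2.42 in the subclasses where it was on. Libraries of 1 animal were alike in IT_A but not everywhere. In IT_A PDGFD stood at 23.7 and 23.8 CPM in the libraries of animal 1 and at 58.5 and 56.7 CPM in those of animal 2. IT_A_1, where PDGFD was highest, held 981 of the 4301 IT_A nuclei of animal 1 and 2465 of the 5563 of animal 2. Within it the gene stood at 49.7 and 87.5 CPM, and it was higher in animal 2 in 4 of the 5 types, the exception being IT_A_4 (30.0 and 25.3 CPM). GLIS3 in IT_A stood at 68.0 and 55.7 CPM against 99.9 and 110 CPM. In Lamp5, PDGFD stood at 239 and 171 CPM in the libraries of animal 1 and at 321 and 216 CPM in those of animal 2, so that there the libraries of the animals overlapped. GLIS3 in IT_A was higher in animal 2 in all 5 IT_A types, while in astrocytes the animals were alike. No test of the animals is possible with 1 of each.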

How the data were processed

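Nuclei were profiled by droplet single-nucleus RNA sequencing. The deposited files hold UMI counts per gene and nucleus, which the authors made with Cell Ranger (6.1.1 in the submitters' processing notes, 7.1.0 in the matrix header), introns included, against ASM229v1 and Ensembl gene models that they had lengthened at the 3′ end. The authors' labels gave each nucleus a quality call, a Scrublet doublet call with its score (a fraction from 0 to 1), a subclass and a type. Nuclei with a subclass label entered (32764 of 36558), including 798 that Scrublet had called doublets, and 2315 nuclei of clusters the authors left out were used only where named. In 8 nuclei subclass and type disagree, and these were kept out of type values.

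Counts were summed per animal and subclass (36 sums). edgeR 4.0.16 (R 4.3.3) tested them by quasi-likelihood after TMM scaling and filterByExpr, with Benjamini-Hochberg adjustment over 17227 genes and a threshold of 0.05, after the code had been tested on simulated data. In those data, with sums drawn independently, the joint test among GABAergic subclasses recovered 27% of 2-fold and 100% of 4-fold changes in Lamp5. The contrast of GABAergic with non-IT glutamatergic subclasses recovered 98 and 100% of such changes in all GABAergic subclasses. DESeq2 1.42.0 was an alternative. Shares and CPM were computed in Python 3.11.15, and 57 nuclei under 1000 UMIs, 22 of them microglia, were left out of thinned values. Exact 95% intervals were computed for shares and cover counting error only. The 2 sums of a subclass come from 2 animals, and all sums of 1 animal share it, which pairs them. Deviations of same-animal sums from their subclass means correlated over 17227 genes with a median r of 0.116 over 153 pairs (0.00345 to 0.597).

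The members and lists were chosen with earlier results of these data known. The text names the 8 genes, the 3 genes most like each by Pearson correlation of log2(CPM + 1) over the 36 sums (genes with a symbol and at least 20 CPM in the highest subclass of each animal), and relatives from lists of families. In the RefSeq annotation of mMonDom1.pri, another assembly, all 8 symbols matched. GRAMD2A, SGK3 and UTRN each overlap a long non-coding RNA gene there and GLIS3 a pseudogene, whose reads counting could mix with theirs.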

Additional observations from a re-analysis of the deposited data

Results flagged for a closer look

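ADGB stood out in nuclei that entered none of the comparisons, because they carry no subclass label. In the 138 nuclei of each animal that the authors left out as ambiguous in the non-neuronal class, ADGB was at 431.3 CPM in animal 1 and 791.7 CPM in animal 2, above its highest labelled subclass, Sst, in both (320 and 382 CPM). It came from few nuclei. In animal 1, 44 of the 138 nuclei (31.9%) had an ADGB UMI and the highest had 18, and in animal 2 these were 47 nuclei (34.1%) and 35 UMIs. The 12 and 16 nuclei with 5 or more ADGB UMIs, picked for that count after it had been seen, held SPAG17, a gene of motile cilia, at 803 and 1266 CPM, against 6.05 and 18.4 CPM in the rest of these nuclei and at most 1.89 and 1.31 CPM in any labelled subclass. They also held DNAH11, another cilium gene, at 98.4 and 278 CPM, against 58.5 and 55.8 CPM in labelled microglia, its highest subclass, and FOXJ1, the regulator of motile cilia, on 2 UMIs and 0 UMIs. Of the same 138 nuclei, 28 and 22 had a UMI of at least 3 of NOS1, TACR1, LHX6 and SST, 5 and 3 of them also with 5 or more ADGB UMIs, and ADGB stood at 307 and 354 CPM there. No group of 4 or more replicates exists here, so no sample could be compared with its group.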

How the results depend on the processing

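Of the 48 tests of the 8 genes, the 3 fold change contrasts of LMCD1 were left out of the tally below. L6b, Lamp5 and Frem1 had no UMI of it, though none of them is in IT_B against IT_D (1.26 ± 1.11, edgeR adjusted p = 0.561). The LMCD1 call in non-neuronal subclasses held in all 6 alternatives. Over the other 45 tests these gave 270 values, of which 251 kept their direction and their side of the threshold. A further 10 gained a call without a change of sign, 2 lost one and 7 changed sign, some of these with a call gained. The animals pair the sums. With the animal as a replicate block, 4134 genes were called between IT_A and IT_C against 2309 without it, and the 2309 were all among them. No other count of calls moved by over 1.5 times, and of the 45 tests 1 changed its call, GLIS3 in IT_B against IT_D (1.67, adjusted p = 0.0101). The split of calls between non-neuronal and neuronal subclasses was 2403 higher and 4989 lower by TMM, 2806 and 4381 by median of ratios, 4405 and 4377 by DESeq2, and 4594 and 5768 without sums under 100 nuclei. The cause was not tested. The 7 changes of sign were in tests that had not passed in the main fit. ADGB was at -0.36 in GABAergic subclasses without small sums, where it was also called lower. In IT_B against IT_D it was at -0.0671 without small sums and -0.0302 without Scrublet doublets. In non-neuronal subclasses PDGFD was at 0.0401 by median of ratios, 0.0195 by DESeq2 and 0.22 without doublets. UTRN was at -0.40 in non-neuronal subclasses without small sums, and was also called lower there. GRAMD2A lost its call there without doublets (0.82, adjusted p = 0.184), as PDGFD did among non-neuronal subclasses without small sums, which leave out the endothelial nuclei (adjusted p = 0.842). GLIS3 in IT_B against IT_D gained a call in 5 alternatives (adjusted p from 7.9e-08 to 0.0499). With no filter, ADGRG2 (-1.03, 0.0153) and UTRN (0.23, 0.0337) gained one in non-neuronal subclasses, as did GLIS3 among GABAergic (1.7e-06) and ADGRG2 among non-neuronal subclasses (0.00312). All adjusted p are by edgeR, or by DESeq2 where named.

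With each animal left out in turn no spread remains, so only fold changes are given and counts of calls and joint tests have no value. In GABAergic against glutamatergic subclasses they ran from -0.17 to 0.18 for ADGB, -0.34 to 1.30 for GLIS3, -4.19 to -1.90 for ADGRG2, 2.77 to 4.48 for PDGFD and -1.46 to -0.70 for UTRN. In non-neuronal subclasses GRAMD2A ran from -1.21 to 1.13, and in IT_B against IT_D ADGB ran from -0.18 to 0.36, SGK3 from -0.28 to 0.066, GLIS3 from 1.43 to 3.86 and UTRN from -2.84 to -1.45. The number of subclasses where a gene was on was 3 to 17 at 10 CPM and 1 to 13 at 50 CPM. Of the 24 genes named as most like a member, 8 stayed among the first 3 by Spearman correlation. Depth limits endothelial values, since 29 and 36 nuclei carry them.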

Other observations

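The 8 genes were set against one another across the 36 sums, which include the IT_A and IT_C sums that chose them. Pearson correlations of log2(CPM + 1) between 2 of them ran from -0.21 to 0.52, the highest being GLIS3 with LMCD1 and the next GRAMD2A with GLIS3 (0.47). These are descriptions over subclasses that share libraries, with no correlations among other genes to set beside them.

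In left-out nuclei of the same non-neuronal ambiguous clusters, GLIS3 stood at 1182 and 1361 CPM and UTRN at 253 and 179 CPM, both under their highest labelled subclass.

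ADGRG2 stood at 114 and 42.6 CPM in the left-out ambiguous GABAergic nuclei, whereas no labelled GABAergic subclass passed 11.5 CPM in either animal. ADGB stood at 30.9 and 206 CPM in those nuclei, GRAMD2A at 17.0 and 110 CPM, and SGK3 at 17.0 and 73.4 CPM. No labelled GABAergic subclass passed 15.0 CPM of GRAMD2A or 6.92 CPM of SGK3 in either animal.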
